A study of Homo sapiens with 8 samples.

Results

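Arrestins, G protein-coupled receptor kinases (GRKs) and regulators of G protein signalling (RGS proteins) turn receptor signals down, and the transcripts of 10 such genes were followed in HEK293, a human embryonic kidney cell line. The genes were taken by symbol: the beta-arrestins ARRB1 and ARRB2, the kinases GRK4, GRK5 and GRK6, and RGS2, RGS10, RGS12, RGS16 and RGS19. All 10 were found among the 58440 genes of the count table, and all 10 passed the filter on low counts that left 17144 genes for testing. None of them passed the test in any of the 6 comparisons made, and each had counts in all 8 libraries.

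The study set cells that stably overexpress HTR1E, a receptor for serotonin that couples to the Gi family, beside control HEK293 cells. Of each line there were 2 samples given 1 µM serotonin for 1 h and 2 given no ligand, and per the treatment protocol the cells were first kept without serum for 3 h. Messenger RNA was sequenced from polyA-selected, stranded libraries. The labels give no information on whether the overexpressing line is 1 clone, what vector the control line carries, or whether the duplicates were separate cultures, so that p-values measure only the spread between these samples.

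The column names of the table give the treatment as a word, followed by a letter, A or B, with or without a trailing R. The labels do not say what these letters stand for. The libraries are therefore called here by their treatment and letters, as in serotonin A or no-ligand BR, and no cell line was assigned to a letter. Where the 2 libraries of a pair are given, the value of the library without the trailing R stands before that of the library with it. HTR1E was measured at 221 and 226 normalised CPM (counts scaled to the size of each library) in the serotonin A pair, and at 175 and 181 in the no-ligand A pair. In serotonin B and serotonin BR it had 0.24 and 0.5 normalised CPM (2 and 3 read pairs). It had 0 read pairs in no-ligand B and no-ligand BR. Taking 3 counts as the limit, this allows up to 1.15 and 0.359 CPM by the plain library totals, which is not the normalised scale.

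The B libraries were far less alike than the A libraries. Totals ran from 2604885 to 9072278 read pairs per library, and no-ligand B was the shallowest. Mitochondrial genes took 54.4% of the counts in no-ligand B and 36.3% in serotonin BR, against 17.9% to 24.6% in the other 6. The median gene differed between duplicates by 0.35 (serotonin A), 0.18 (no-ligand A), 0.40 (serotonin B) and 0.66 (no-ligand B) on the log2 scale. Of 5 genes known from HEK293 cells, all (NEFL, NEFM, PAX2, LHX1 and GATA3) had counts in all 8 libraries. The leukocyte gene PTPRC had no count in any library, KRT5, KRT14, ALB and COL1A2 reached at most 1.15 CPM, and the fibroblast collagen gene COL1A1 had 8.06 to 35.4 CPM.

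**Figure D1:**
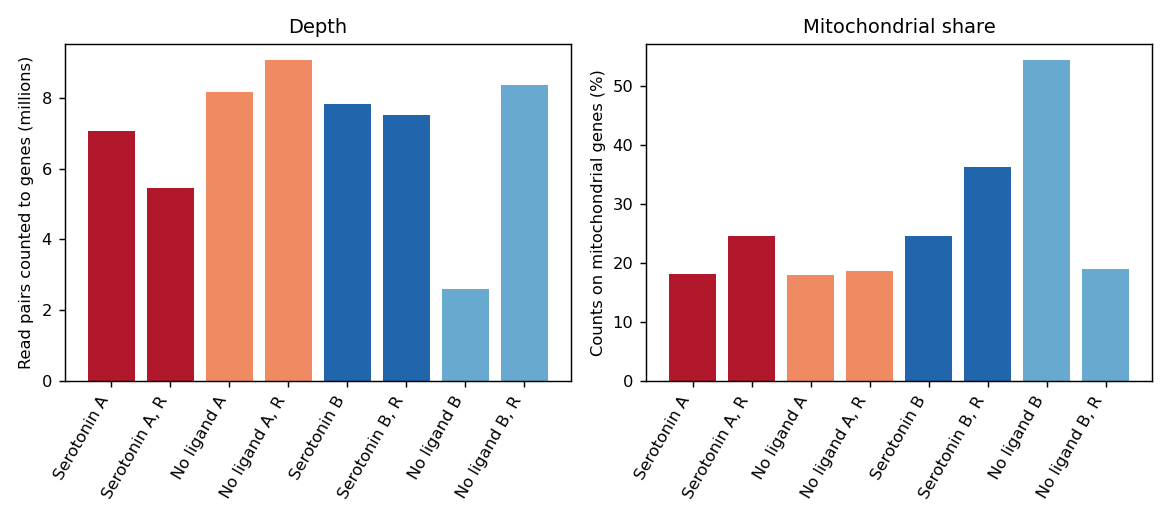
Read pairs counted to genes (left) and the share of counts on mitochondrial genes (right, in percent) in each of the 8 libraries, with 1 bar per library coloured by letter and treatment. No-ligand B stands apart with 2604885 read pairs and a mitochondrial share of 54.4%.

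As background, an agonist-bound receptor is phosphorylated by GRKs. Beta-arrestins bind the phosphorylated receptor, uncouple it from its G protein, link it to clathrin and the AP2 adaptor for uptake, and can act as scaffolds for the ERK cascade. RGS proteins act one step later, on the G protein itself: they speed the hydrolysis of GTP by the alpha subunit and so shorten its active state. RGS2 acts mainly on Gq, RGS16 on Gi and Gq, and RGS10, RGS12 and RGS19 on the Gi family, the class to which HTR1E couples.

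The genes lie on 7 chromosomes (GRCh38, outer ends of the counted exons), and all are protein-coding. ARRB1 is at chr11:75264182-75351705 and ARRB2 at chr17:4710489-4721499. GRK4 (chr4:2963608-3040747) and RGS12 (chr4:3293028-3439913) share a chromosome arm, as do GRK5 (chr10:119207589-119459742) and RGS10 (chr10:119499828-119542708). GRK6 is at chr5:177403204-177442901, RGS2 at chr1:192809039-192812283, RGS16 at chr1:182598623-182604408 and RGS19 at chr20:64073181-64079988.

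The regulatory sequence is shown for the 3 RGS genes with the largest estimated differences between A and B libraries given serotonin. Each line is the stretch of 250 bases directly before the gene start, read on the gene's own strand, from RefSeq (GRCh38.p14): RGS2 at chr1:192808789-192809038 (plus strand), RGS10 at chr10:119542720-119542969 (minus strand) and RGS16 at chr1:182604390-182604639 (minus strand). Capitals mark the half-site of the cAMP response element (CRE), TGACG or its reverse complement, searched because the study also concerned the cAMP and CREB pathway.
RGS2: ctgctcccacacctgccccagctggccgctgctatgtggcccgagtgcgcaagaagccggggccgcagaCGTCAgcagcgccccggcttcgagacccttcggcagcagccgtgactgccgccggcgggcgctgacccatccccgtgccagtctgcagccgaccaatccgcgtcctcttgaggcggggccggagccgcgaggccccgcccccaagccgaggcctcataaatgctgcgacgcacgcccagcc
RGS10: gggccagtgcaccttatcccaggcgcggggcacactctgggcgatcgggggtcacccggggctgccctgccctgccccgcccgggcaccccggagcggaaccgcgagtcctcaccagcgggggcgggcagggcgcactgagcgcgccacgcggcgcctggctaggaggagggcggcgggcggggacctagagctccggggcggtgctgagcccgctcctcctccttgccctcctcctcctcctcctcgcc
RGS16: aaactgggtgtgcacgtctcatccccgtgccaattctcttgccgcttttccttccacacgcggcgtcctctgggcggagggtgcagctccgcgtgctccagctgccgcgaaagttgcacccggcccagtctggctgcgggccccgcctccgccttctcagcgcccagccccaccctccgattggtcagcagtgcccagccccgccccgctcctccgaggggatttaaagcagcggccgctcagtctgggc
RGS2 held 1 half-site, on the opposite strand, beginning 181 bases before the gene start, and the other pair held none. Of the 9 members with a window in the RefSeq table (ARRB1 was not among them), ARRB2, GRK6 and RGS2 held a half-site, and 0 of the 9 held the full palindrome TGACGTCA, which contains it. Among all 35116 windows of this length 21.2% held the half-site and 1.65% the full element. The share of G and C was 72.8% for RGS2, 77.2% for RGS10 and 68.4% for RGS16, against a median of 58.0% over all windows. The window for GRK6 begins at a start 23472 bases from the outer end of the counted gene. These letters describe the windows only and say nothing of binding.

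Levels were compared between genes per kilobase of counted length, as normalised CPM per kb over the 8 libraries. ARRB2 was the most abundant, with a median of 22.9 (range 18.8 to 44.6), followed by GRK6 with 19.7 (15.2 to 24.5). ARRB2 was above GRK6 in all 8 libraries, although their ranges overlapped; of neighbours in this order, only GRK6 and RGS16 had ranges that did not. RGS16 (median 7.84) and RGS10 (7.72) came next and could not be ordered, RGS16 being the higher in only 2 of 8 libraries. RGS19 followed with 4.30. GRK4 (2.15), RGS12 (2.13), RGS2 (1.83) and GRK5 (1.46) lay close together, and GRK4 was above RGS12, and RGS12 above RGS2, in only 4 of 8 libraries each. ARRB1 had the lowest median, 1.10 (0.55 to 1.68), but GRK5 was above it in only 6 of 8 libraries.

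**Figure D2:**
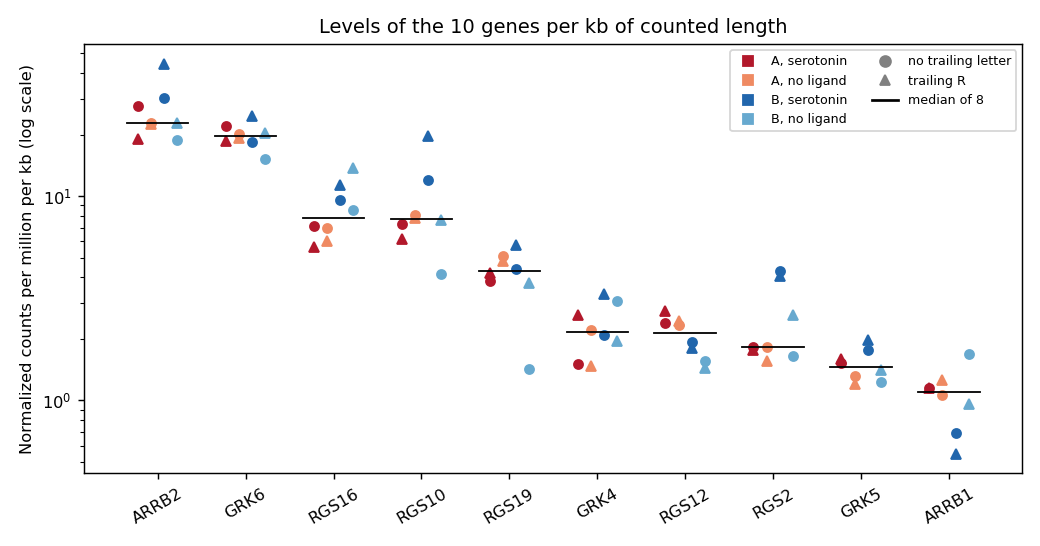
Normalised CPM per kb of counted length on a log scale, with 1 point per library coloured by letter and treatment and a line at the median of the 8 libraries. ARRB2 and GRK6 lie highest, with medians of 22.9 and 19.7, and ARRB1 has the lowest median, 1.10.

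With GRK4 as the exception, the same genes varied more among the B libraries than among the A libraries. The highest A library exceeded the lowest by 1.16-fold (RGS12) to 1.77-fold (GRK4), with a median over the 10 genes of 1.3-fold. Among the B libraries the ratio ran from 1.33-fold (RGS12) to 4.78-fold (RGS10), with a median of 2.04-fold. For GRK4 the B ratio, 1.71-fold, was below the A ratio.

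**Figure D3:**
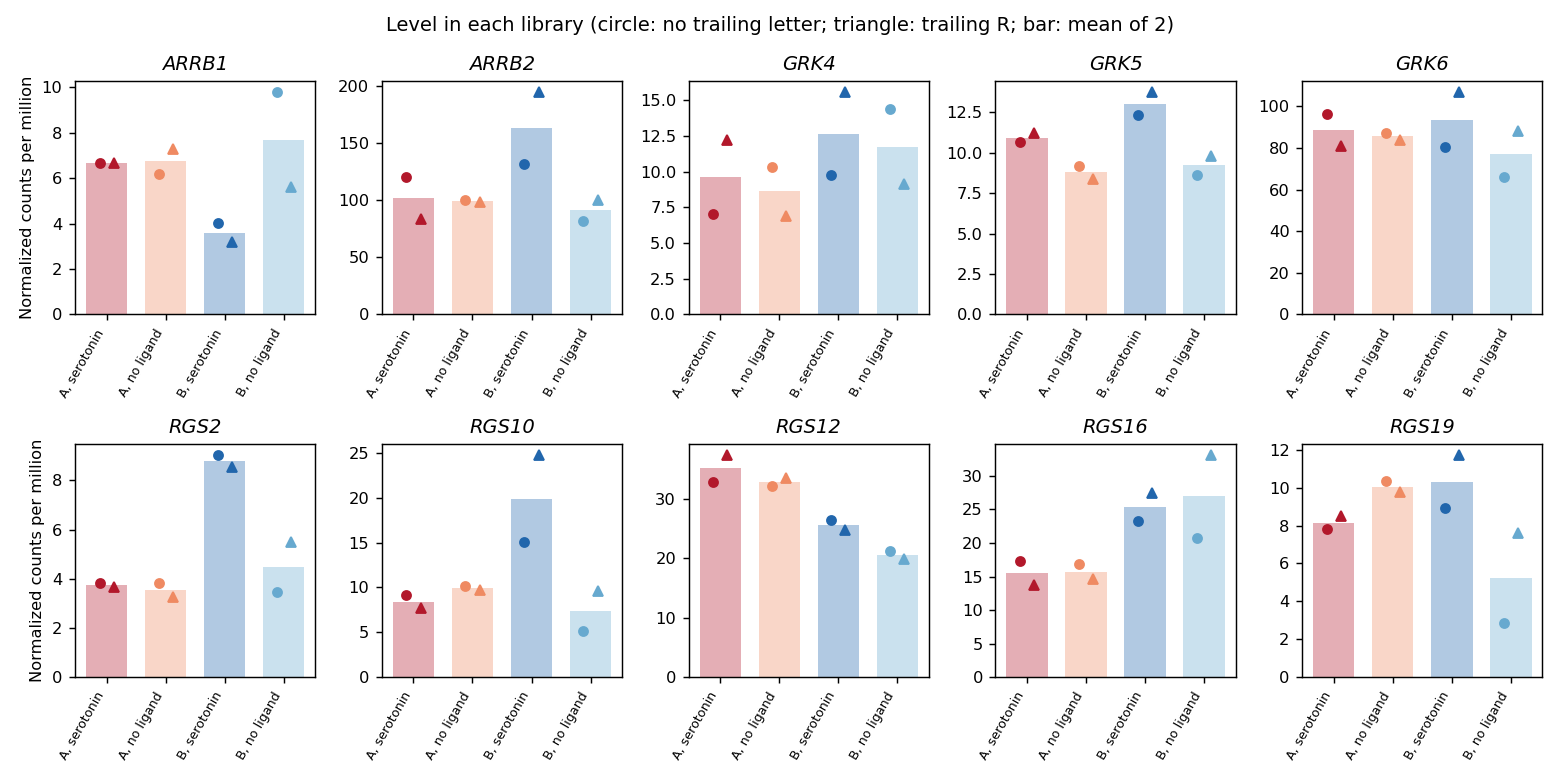
Normalised CPM of each of the 10 genes, on axes from 0, by letter and treatment. Points are single libraries (circle without, triangle with the trailing R) and bars are means of 2. The A libraries lie close together for most genes, whereas RGS10 runs from 5.18 to 24.8 among the B libraries.

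Whether serotonin changed these transcripts was first asked over both letters together, taking the response within each letter and averaging. None of the 10 genes was called by edgeR's quasi-likelihood test at an adjusted p under 0.05, and none had an unadjusted p under 0.05, where 11% of all genes had one. Of the 17144 genes, 1 was called (0.00583%). DESeq2 called 0 of the 10 too, and 11 of all genes (0.0642%). The estimate was above 0 for 8 genes and below 0 for 2, with a median of 0.23 on the log2 scale, against 0.00 over all genes tested. GRK5, a membrane-bound kinase that phosphorylates active receptors, was the only member whose serotonin libraries all lay above all no-ligand libraries, a separation in one direction or the other that 2.18% of all genes showed. It had 10.7 and 11.2 normalised CPM in the serotonin A pair and 12.3 and 13.7 in serotonin B and BR, against 9.18 and 8.37 in the no-ligand A pair and 8.64 and 9.80 in no-ligand B and BR. The serotonin libraries were thus higher in both letters, by 0.40 ± 0.21 on the log2 scale (fitted difference ± SE, adjusted p = 0.479). The GRK5 value of no-ligand B rests on 15 read pairs. For these, counting error alone gives 4.83 to 14.25 (exact Poisson 95% interval), a range that covers all the serotonin values. RGS10 had the largest estimate, 0.54 ± 0.26 (adjusted p = 0.465), and ARRB1 the lowest, -0.50 ± 0.28 (adjusted p = 0.50).

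Among the A libraries, in which HTR1E was high, serotonin and no-ligand levels of the 10 genes were close. The edgeR test called 0 of the 10 and 0% of the 17144 genes, with 67 genes (0.391%) and none of the 10 at an unadjusted p under 0.05. That share is below what a cut at 0.05 passes when nothing differs, so the test was conservative here. The test took its spread from the A and B libraries together, and its lack of calls does not show equal levels. With only the 4 A libraries in the fit it called 0 of 16196 genes, with 308 at an unadjusted p under 0.05, and DESeq2 also called 0 genes. The median estimate over the 10 genes was 0.05 on the log2 scale, against -0.02 over all genes.

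Both beta-arrestins overlapped between treatments in the A libraries. ARRB2, the more abundant of them, had 121 and 83.5 normalised CPM in the serotonin A pair, against 100.04 and 98.6 in the no-ligand A pair. ARRB1 had 6.69 and 6.68 in the serotonin libraries, against 6.19 and 7.29 in the no-ligand libraries. The no-ligand values of ARRB2 lay between its serotonin values, and the serotonin values of ARRB1 lay between its no-ligand values. The 95% interval of the response ran from 0.639-fold to 1.66-fold for ARRB2 and from 0.558-fold to 1.76-fold for ARRB1.

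The kinases had close values in the A libraries. GRK6, a kinase found in most tissues, had 96.5 and 80.9 normalised CPM with serotonin, against 87.3 and 83.99 without ligand, with an interval of 0.672-fold to 1.60-fold. GRK4, best known from testis and kidney, had 7.06 and 12.2 with serotonin, against 10.4 and 6.89 without ligand, so that its duplicates differed more than its groups. GRK5 averaged 10.9 ± 0.38 with serotonin and 8.78 ± 0.57 without ligand (SD, n = 2 each), and its interval, 0.801-fold to 1.93-fold, included no change.

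Of the RGS genes, RGS2, RGS12 and RGS16 overlapped between treatments in the A libraries. RGS2 had 3.84 and 3.68 normalised CPM with serotonin, against 3.84 and 3.25 without ligand. RGS12, a large member with a Ras-binding region, had 32.8 and 37.4, against 32.1 and 33.5. RGS16 had 17.3 and 13.7, against 16.9 and 14.6. RGS10 and RGS19 both had serotonin values below the no-ligand values: RGS10 had 9.17 and 7.69, against 10.1 and 9.75, and RGS19 had 7.80 and 8.52, against 10.4 and 9.75. Neither passed the test (log2 estimates of -0.23 ± 0.36 and -0.30 ± 0.38, adjusted p = 1 for each), and, with GRK5, they made 3 of 10 genes without overlap, where 27% of all genes had none. Over the 10 genes the intervals reached from the 0.457-fold of RGS19 to the 2.04-fold of GRK4. In a fit of the 4 A libraries alone they were narrower, from the 0.554-fold of RGS19 to the 1.89-fold of RGS2.

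Among the B libraries, in which HTR1E was at or near 0, the estimates were larger and the duplicates further apart. The edgeR test called 0 of the 10 genes and 0.0117% of all genes (2 of 17144), while 4 of the 10 and 26.4% of all genes had an unadjusted p under 0.05. The median estimate over the 10 genes was 0.40 on the log2 scale, against 0.01 over all genes. The serotonin and no-ligand values did not overlap for 7 of the 10 genes, where 54% of all genes had no overlap.

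RGS10, the smallest of these RGS proteins, differed most. It had 15.02 and 24.8 normalised CPM in serotonin B and BR, against 5.18 and 9.58 in no-ligand B and BR. Both serotonin libraries were higher, but the value of no-ligand B rests on 9 read pairs, for which counting error alone gives 2.37 to 9.84 (exact Poisson 95% interval). The fitted difference was 1.31 ± 0.37 on the log2 scale (2.47-fold, interval 1.40 to 4.37), with an adjusted p of 0.0848. In a fit of the 4 B libraries alone the interval was wider, 1.25-fold to 5.26-fold (adjusted p = 0.19).

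RGS2, whose transcript is induced by many hormones, had 9.04 and 8.54 normalised CPM in serotonin B and BR, against 3.46 and 5.50 in no-ligand B and BR. The serotonin values were close to each other and above both no-ligand values, of which that of no-ligand B came from 6 read pairs (interval 1.27 to 7.52). The difference was 0.87 ± 0.40 (adjusted p = 0.187). RGS19, known as an interactor of Gi alpha subunits, had 8.91 and 11.7, against 2.88 and 7.59, with 5 read pairs in no-ligand B (0.78 ± 0.41, adjusted p = 0.239). RGS12 had 26.4 and 24.8, against 21.3 and 19.8 (0.33 ± 0.25, adjusted p = 0.428). RGS16 overlapped between the treatments, with 23.3 and 27.5, against 20.7 and 33.1.

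The beta-arrestins had estimates of opposite sign in the B libraries. ARRB2 had 132 and 195 normalised CPM in serotonin B and BR, against 82.4 and 100.05 in no-ligand B and BR. ARRB1 had 4.03 and 3.18 (33 and 19 read pairs), against 9.79 and 5.61 (17 and 51 read pairs). For no-ligand B, counting error alone gives 5.70 to 15.7 for ARRB1. The serotonin libraries were thus above for ARRB2 (0.83 ± 0.32 on the log2 scale, adjusted p = 0.135) and below for ARRB1 (-0.98 ± 0.42, adjusted p = 0.169), neither past the threshold. Per kb, ARRB2 exceeded ARRB1 by 43.5-fold and 81.7-fold in serotonin B and BR, against 11.2-fold and 23.8-fold in no-ligand B and BR, and by 16.7-fold to 24.1-fold in the 4 A libraries. The highest and the lowest of these ratios came from serotonin BR and no-ligand B, the libraries with the highest mitochondrial shares. GRK4, GRK5 and GRK6 had estimates of 0.17 ± 0.42, 0.48 ± 0.30 and 0.27 ± 0.29.

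The calls in the B libraries turned on single libraries and on the settings. RGS10 was called higher with serotonin by DESeq2 (adjusted p = 0.0408, where 9.33% of all genes were called) and with no filter on low counts (0.0261, 4.62%). With the trailing letter as a block it was called too (0.017, 13.6%; the columns were not shown to be pairs). RGS10 was also called without serotonin B (0.0469, 5.34%). Without no-ligand BR, where no-ligand B alone stood for its group, RGS10 (0.011), ARRB2 (0.0398) and RGS19 (0.0295) were called beside 26.3% of all genes, and the estimates moved to 1.96 for RGS10 and to 1.86 for RGS19 (1.31 and 0.78 with all 8). Without no-ligand B, 0 of the 10 were called. Without no-ligand B and serotonin BR together, the estimate for RGS10 was 0.64 (adjusted p = 0.49). Serotonin BR had the second highest mitochondrial share (36.3%) and no-ligand B the highest (54.4%), and the part of these shares in the differences was not tested.

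**Figure D4:**
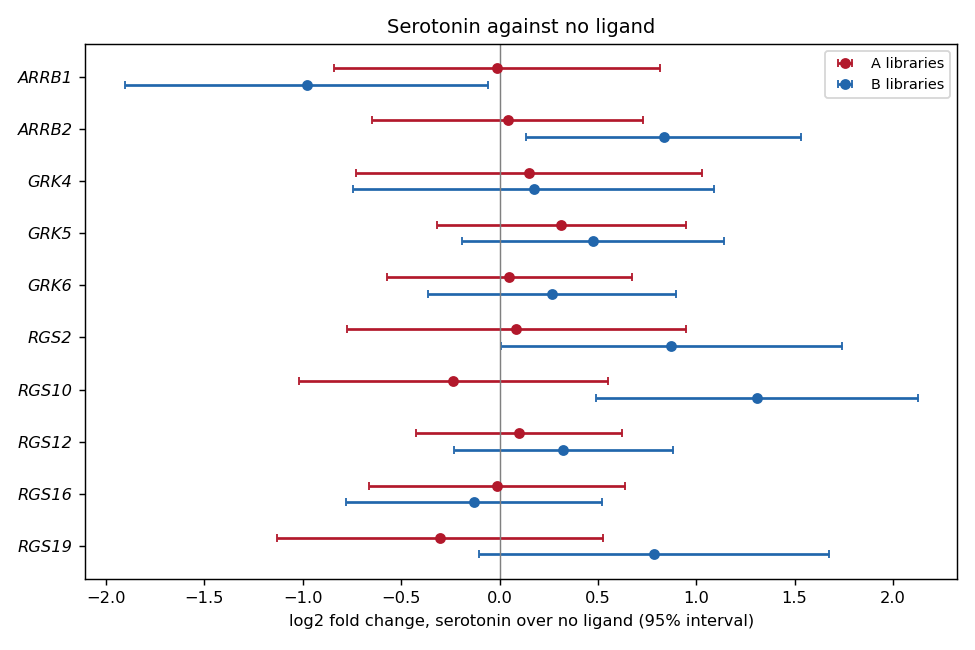
Fitted log2 fold change of serotonin over no ligand for each gene (points) with its 95% interval (lines), in A libraries (upper of each pair) and B libraries (lower). All A intervals include 0. Before adjustment over all genes, the B intervals of RGS10 (estimate 1.31), ARRB2 and RGS2 lie above 0 and that of ARRB1 lies below it.

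The difference between these responses, A minus B, was tested directly. The edgeR test called 0 of the 10 genes and 0% of all genes, with RGS10 alone of the 10 and 14.8% of all genes at an unadjusted p under 0.05. DESeq2 called 0 of the 10 and 70 of all genes (0.408%). For RGS10 the responses of -0.23 in A and 1.31 in B differed by -1.54 ± 0.52 on the log2 scale (adjusted p = 0.306). For RGS19 the responses of -0.30 and 0.78 differed by -1.09 ± 0.55 (adjusted p = 0.367). For ARRB1 and ARRB2 the differences were 0.97 ± 0.57 and -0.79 ± 0.45. The median over the 10 genes was -0.22, against -0.04 over all genes. Without no-ligand BR, RGS10 (-2.20, adjusted p = 0.0191) and RGS19 (-2.17, adjusted p = 0.0331) were called beside 18.9% of all genes. Without no-ligand B and serotonin BR together, the difference for RGS10 was -0.87 (adjusted p = 0.625).

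The A and B libraries were then compared at each treatment. With serotonin, the edgeR test called 0 of the 10 genes and 5.02% of all genes, and 4 of the 10 had an unadjusted p under 0.05, as had 24.2% of all genes. The median estimate over the 10 genes was -0.37 on the log2 scale, A over B, against 0.02 over all genes. This comparison shares serotonin B and BR with the serotonin response in the B libraries above. RGS10 had 9.17 and 7.69 normalised CPM in the serotonin A pair, against 15.02 and 24.8 in serotonin B and BR (-1.23 ± 0.36, adjusted p = 0.0691). RGS2 had 3.84 and 3.68, against 9.04 and 8.54 (-1.22 ± 0.38, adjusted p = 0.0869). For both genes each A value lay below each B value, without passing the test. ARRB1 was estimated at 0.88 ± 0.40 (adjusted p = 0.206), ARRB2 at -0.67 ± 0.32 (adjusted p = 0.217) and RGS16 at -0.70 ± 0.30 (adjusted p = 0.175). In all, 8 of the 10 genes did not overlap between A and B with serotonin, where 58.9% of all genes did not.

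Without ligand, the edgeR test called 0 of the 10 genes and 2.4% of all genes, with 2 of the 10 and 19.1% of all genes at an unadjusted p under 0.05. DESeq2 called 0 of the 10 at either treatment, where it called 8.84% of all genes with serotonin and 4.91% without ligand. The median estimate was 0.01, against 0.03 over all genes. RGS16 had 16.9 and 14.6 normalised CPM in the no-ligand A pair, against 20.7 and 33.1 in no-ligand B and BR (-0.82 ± 0.30, adjusted p = 0.176). RGS12 had 32.1 and 33.5, against 21.3 and 19.8 (0.68 ± 0.25, adjusted p = 0.179). RGS16 was lower and RGS12 higher in A than in B by these values, and RGS10 and RGS19 were higher in both A libraries than in both B libraries, with estimates of 0.31 ± 0.37 and 0.75 ± 0.40. These 4 of 10 genes did not overlap, where 54.3% of all genes did not.

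RGS12 and RGS16 were the only members that kept apart over all 8 libraries, as did 17.6% of all genes. RGS12 ran from 32.1 to 37.4 normalised CPM in the 4 A libraries, against 19.8 to 26.4 in the 4 B libraries. RGS16 ran from 13.7 to 17.3 in the A libraries, against 20.7 to 33.1 in the B libraries. That 2 of the 10 genes kept apart is near the share of all genes. The estimate for RGS12 was 0.46 ± 0.24 with serotonin (unadjusted p = 0.0857, adjusted p = 0.272), and RGS12 was called under none of the alternatives run.

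The calls in these comparisons also turned on libraries and settings. With serotonin, leaving out no-ligand B or no-ligand BR, which that comparison does not contain, hardly moved the estimates. For RGS10 they were -1.25 and -1.22 (-1.23 with all 8), and for RGS2 -1.25 and -1.22 (-1.22 with all 8). Without serotonin B the estimate for RGS10 was -1.58. The spread in each test was shared with libraries outside the comparison, except in fits of the compared libraries alone. With serotonin, RGS10 was called lower in A with no filter (adjusted p = 0.0329, 5.09% of genes called), in a fit of the 4 serotonin libraries alone (0.0153, 14.5%), by limma with library weights (0.0358, 9.87%) and without serotonin B (0.0431, 6.27%). Without no-ligand B, RGS10 (0.00846), RGS2 (0.0263) and RGS16 (0.0494) were called lower in A beside 18.1% of genes, and without no-ligand BR, RGS10 (0.00974) and RGS2 (0.0304) beside 18.2%. Leaving out no-ligand B and serotonin BR together, the pair with the highest mitochondrial shares, left RGS2 called (0.0471, 9.86%) but not RGS10. Without ligand, RGS16 was called lower in A when no-ligand B was left out (0.0357, 2.96%) and when it was left out with serotonin BR (0.00328, 8.23%). RGS19 was called higher in A when no-ligand BR was left out (0.0367, 20.1%), with an estimate of 1.84 against 0.75 with all 8, and the estimate for RGS10 was then 0.98 against 0.31.

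**Figure D5:**
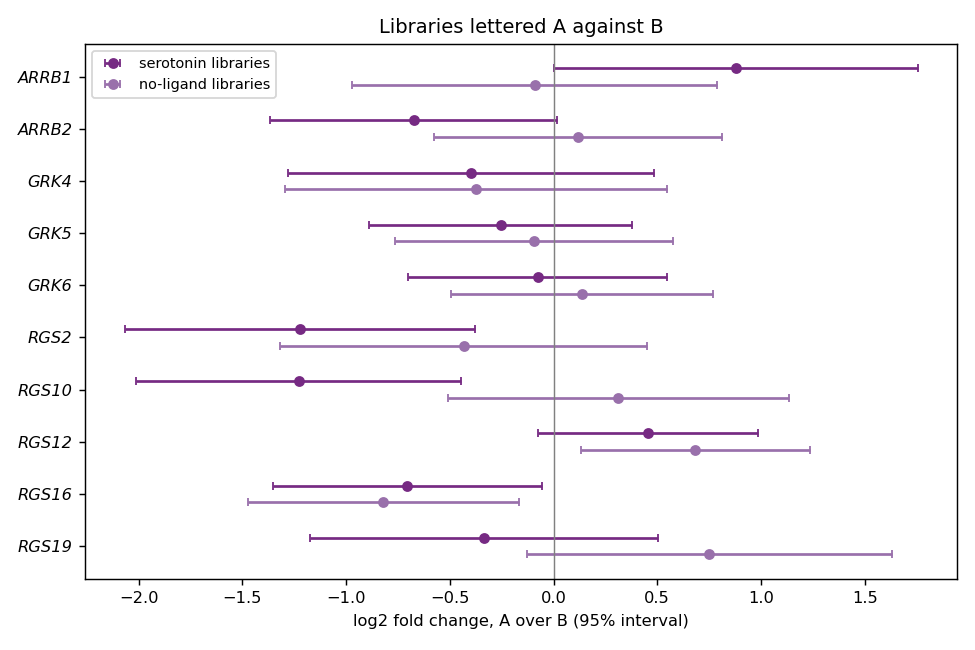
Fitted log2 fold change of A over B libraries for each gene (points) with its 95% interval (lines), with serotonin (upper of each pair) and without ligand (lower). RGS16, RGS2, GRK4 and GRK5 have estimates below 0 at both treatments and RGS12 above 0, and the interval of RGS12 with serotonin includes 0.

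By likeness over the 8 libraries, measured as Pearson's r of log2 CPM and given as a description, the genes closest to RGS10 were ACAP3, AMH, CCNL2, CDK10 and SGF29, each at 0.993 or 0.994. Those closest to RGS16 were EIF3K, DPF1, PSMG1, PABPC4 and USP39, at 0.978 to 0.985. The 8 libraries differ in letter, depth and mitochondrial share, and the part of these differences in the likeness was not tested.

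A wider list of 52 genes of the same machinery was examined in the same fit. It held the visual arrestins, the remaining GRKs and RGS genes, RGS partners and GoLoco proteins, alpha-arrestins, clathrin and AP2 subunits, dynamins and the chaperones of G alpha subunits. Of these, 37 passed the filter, and the other 15 reached at most 2.13 CPM in any library (RGS11). In each of the 6 comparisons 0 of the 37 were called higher and 0 lower, while unadjusted p-values under 0.05 were found for 7 (both letters together), 0 (A), 13 (B), 9 (difference between the responses), 5 (A against B with serotonin) and 8 (A against B without ligand). In the same order, 11%, 0.391%, 26.4%, 14.8%, 24.2% and 19.1% of all genes had one. The median estimate of the 37 for serotonin was 0.05 on the log2 scale over both letters, against 0.00 over all genes.

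The GoLoco proteins hold Gi alpha subunits in their GDP-bound form. Of the groups in the wider list, these and RGS14 (6 genes, all tested) had the largest median log2 estimate for serotonin in B, 1.02. Of the 6 genes, 4 had an unadjusted p under 0.05, where 26.4% of all genes had one, and 0 were called. In the A libraries their median was -0.03. In B, GPSM1 was estimated at 1.10 ± 0.37 (adjusted p = 0.106) and RAP1GAP at 1.01 ± 0.335 (adjusted p = 0.106). RGS14 was estimated there at 1.01 ± 0.35 (adjusted p = 0.114) and GPSM2 at -0.66 ± 0.29 (adjusted p = 0.175). The 10 clathrin, AP2 and dynamin genes had a median of 0.38 in B and -0.03 in A, again with 0 calls. The 3 of them with an unadjusted p under 0.05 in B had estimates of both signs: 1.57 for the dynamin gene DNM1 (adjusted p = 0.0687), -1.36 for the clathrin heavy chain gene CLTC (adjusted p = 0.0687) and -0.99 for the AP2 subunit gene AP2B1 (adjusted p = 0.0904). The largest estimate in B among the tested genes of the wider list was 1.98 ± 0.44, for the alpha-arrestin gene ARRDC1 (adjusted p = 0.0676). The groups and genes named in this paragraph were picked after their values were seen.

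A few genes of the wider list are given because they complete the picture of the family; they were picked after their values were seen. GRK2, the broadly expressed kinase that Gbeta-gamma recruits to receptors, had 112 and 70.5 normalised CPM in the serotonin A pair and 91.2 and 94.5 in the no-ligand A pair. In serotonin B and BR it had 103 and 165, against 55.9 and 92.8 in no-ligand B and BR (0.83 ± 0.36, adjusted p = 0.174). GRK3, its close relative, ran from 28.7 to 37.8 in the A libraries and from 21.9 to 51.8 in the B libraries. RGS9, known for ending the light response in photoreceptors, had 18.6, 15.4, 20.4 and 19.9 in the A libraries, against 8.79, 9.55, 13.3 and 9.58 in the B libraries. RGS9 was thus higher in all 4 A libraries, by 0.89 ± 0.29 with serotonin (adjusted p = 0.093) and 0.88 ± 0.30 without ligand (adjusted p = 0.152). It was not called, and 17.6% of all genes kept the A and B libraries apart in one direction or the other.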

How the data were processed

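Per the file header, the deposited table holds counts of read pairs per gene, made by the authors with featureCounts 2.0.1 (reverse-stranded, paired) on GENCODE release 28, from alignments whose duplicates were marked. Per the submitters' processing notes, cutadapt 3.4, STAR 2.7.8a and hg38 were used. Columns were grouped by the treatment word in their names, which the labels share. The first letter of each name served as a factor without a meaning, since cell lines were not to be assigned from counts. Symbols came from a table of gene IDs, which named 57754 of 58440 genes.

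Counts were filtered with filterByExpr, scaled by TMM and fitted with edgeR 4.0.16 (quasi-likelihood, robust) with a mean for each of the 4 combinations of letter and treatment. P-values were adjusted by Benjamini and Hochberg over all genes tested, and a gene was called at an adjusted p under 0.05. Normalised CPM uses the TMM-scaled library size. SE and 95% intervals come from the F statistic. The counted exons of the 10 genes shared no base with another gene on the same strand, and no duplicates were as alike as counting error. Alternatives used DESeq2 1.42.0 and limma 3.58.1 under R 4.3.3. The code was tested on simulated data. The 10 genes and the wider list were chosen with earlier results of these data known. All 10 were named in every comparison, and genes of the wider list were to be named where called. Intervals of single counts cover counting error only.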

Additional observations from a re-analysis of the deposited data

Results flagged for a closer look

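In 24 sets of 4 libraries (the 10 genes, the total and the mitochondrial share, at each treatment), 4 held a library far from the others by Dixon's ratio, where chance gives about 1 in 20. All 4 were no-ligand B among the no-ligand libraries. Its ARRB2 level was 82.4 normalised CPM, against 98.6 for the nearest library (ratio 0.916), and its RGS10 level was 5.18, against 9.58 (ratio 0.886). Its total was 2604885 read pairs, against 8153715 for the nearest (ratio 0.858), and its mitochondrial share was 54.4%, against 18.9% (ratio 0.973). The libraries in such a set carry both letters.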

How the results depend on the processing

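Of 1060 values of the 10 genes under alternatives, 1038 kept their side of the threshold and 22 passed it only under the alternative; 0 changed sign while past the threshold, and 52 changed sign while past it in neither. In the serotonin response of the A libraries and in the response over both letters, 0 of the 10 genes were called under every alternative run. In the B libraries, 1 was called by DESeq2, with no filter and under the replicate block (RGS10 each time), and 0 to 3 when a library was left out. For A against B with serotonin, 1 was called with no filter, in the fit of the 4 libraries alone, by limma with library weights, and without no-ligand B and serotonin BR together, and 0 to 3 when a library was left out. For A against B without ligand, 1 was called without that pair of libraries, and 0 to 1 when a library was left out. For the difference between the responses, 0 to 2 were called when a library was left out. The cause was not tested. Counts of all genes called also moved: with a library left out, 0 to 4839 for serotonin in B (2 with all 8), 0 to 1609 over both letters (1), 0 to 3473 for the difference (0), 82 to 3348 for A against B with serotonin (861) and 54 to 3699 without ligand (412). In that order DESeq2 gave 1599, 11, 70, 1515 and 841, no filter 1647, 178, 443, 1814 and 1007, the replicate block 2327, 44, 373, 481 and 267, and leaving out the pair of libraries 81, 4, 6, 1805 and 1507. Fits of the compared libraries alone gave 9 in B, 2341 with serotonin and 8 without ligand, and library weights gave 0 in B and 1692 with serotonin. With DESeq2 size factors, a filter of 10 counts, protein-coding genes only or no mitochondrial genes, 0 of the 10 genes were called in all 6 comparisons. Without no-ligand BR, the median estimate over all genes was 0.15 for serotonin in B (0.01 with all 8), -0.18 for the difference (-0.04) and 0.17 for A against B without ligand (0.03). Leaving out mitochondrial genes, leaving out the pair of libraries and the library weights were chosen after seeing the data. A library left alone in its group was assumed to vary like the others. The columns carry no replicate numbers; the block used the trailing letter, and deviations of columns that share one correlated at -0.464 to 0.146 between the 4 groups, so they were not taken as pairs. Depth limits RGS2, RGS10 and RGS19 most, with 6, 9 and 5 read pairs in no-ligand B.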
